A study of Mus musculus with 16 samples.

Results

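Ventricular cardiomyocytes (CMs) of the mouse were compared between embryonic day (E) 15.5 and postnatal day (P) 2 by the RNA of cells with a low level of integrin α6 (ITGA6, CD49f) on their surface. Members were the 4 microarrays titled as E15.5 ErbB-2+/CD49flow (EL) and the 4 titled as P2 CD49flow (PL), 8 of the 16 microarrays of the series, which their titles and no measured value put in these groups. The other 8 held cells with a high level of ITGA6, at E15.5 (EH) and at P2 (PH), 4 each. They serve here to check the ventricular label and to show where the stage difference of the ITGA6low cells was their own. They also enter the fit over all 16 microarrays, from which the spread was estimated. All animals were CD1 wild-type mice and carried no transgene, and the 4 samples of a group were pools of hearts from separate experiments, where the low and the high sample of the same number and stage are taken to be of the same experiment. EL cells were flow sorted as live cells positive for ERBB-2, a receptor tyrosine kinase on the surface of CMs, and low for ITGA6. From the PL cells, non-myocytes were first depleted magnetically, and the rest were flow sorted for low ITGA6, without staining for ERBB-2. Stage therefore cannot be told apart from the sorting strategy, and neither can it be told apart from the slide, since all PL microarrays lay on 1 slide that held no E15.5 sample, whereas the EL microarrays shared their 2 slides (samples 2 and 8 on 1, samples 3 and 6 on the other) with EH microarrays only.

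Around birth the ventricular myocardium passes from a proliferating tissue that lives mainly on glucose and lactate to a growing, no longer dividing muscle that burns fatty acids. In rodents the ventricle exchanges β-myosin heavy chain (Myh7) for the faster α-myosin heavy chain (Myh6) over the same period, and the sarcoplasmic reticulum and the membrane channels for excitation mature. Fatty acids enter the cell through CD36 and transport proteins, are activated to acyl-CoA, pass the mitochondrial membranes on carnitine and are shortened by β-oxidation, and many genes of this path are controlled by nuclear receptors of the PPAR and ERR families.

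Normalized signal intensities, deposited as log2 values, are given here as linear values in the order of samples 2, 3, 6 and 8 for EL and 2, 3, 4 and 5 for PL, and differences as log2 fold-changes of PL over EL ± SE. Between 38.8% and 41.0% of spots were well above background on the EL microarrays and between 35.7% and 39.8% on the PL microarrays. Over all probes without a missing value, microarrays of the same group correlated with r of at least 0.981 in EL and 0.976 in PL. Pairs of EL with PL microarrays correlated with r between 0.958 and 0.969. The median absolute log2 difference between 2 microarrays was 0.136 to 0.326 within a group and 0.418 to 0.533 between EL and PL. A probe is said to have risen or fallen where its p in limma, adjusted after Benjamini and Hochberg over all 55681 probes, was at most 0.05 and the change was at least 3-fold. By this rule 892 probes (1.6%) rose and 1201 (2.16%) fell. Without the 3-fold limit, 5395 probes (9.69%) were higher and 5592 (10%) lower, and on 5786 probes (10.4%) all PL microarrays stood above all EL microarrays and on 5849 (10.5%) below them. With 4 microarrays against 4, the smallest p of a two-sided exact permutation test is 0.0286, and every gene without overlap of the groups reached it.

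The label was checked on 4 genes of the myocardium. Myh6 measured 76969.5, 74606, 69177 and 56579.8 in EL and 263054, 272331, 286863 and 263054 in PL, and Myh7 248520, 248520, 248520 and 234625 in EL and 120277, 132718, 116664 and 107427 in PL. The groups did not overlap in either gene. Myh6 rose 3.94-fold (log2 1.98 ± 0.10, adjusted p = 1.4e-08), while Myh7 was 2.06-fold lower (log2 -1.04 ± 0.13, adjusted p = 4.0e-05), which is short of the 3-fold limit. The ventricular regulatory light chain Myl2 (MLC-2v) measured 205817, 226948, 205817 and 220436 in EL and 205817, 226948, 205817 and 220436 in PL, the same 4 values in both groups. Quantile normalization gives every microarray the same set of signals, so that changes of the few brightest genes cannot be read from these values. Scaled to the 75th percentile of each microarray instead, Myh6 differed by 2.03, Myh7 by -0.78, Myl2 by 0.40, the essential light chain Myl3 by 0.48 and cardiac actin Actc1 by 0.38 on the log2 scale. Hey2, a repressor of atrial genes in the compact ventricular wall, measured 226, 304, 221 and 247 in EL and 330.2, 303, 138 and 220.1 in PL, so that the groups overlapped (log2 -0.08 ± 0.47, adjusted p = 0.99). On the microarrays of ITGA6high cells Hey2 was well above background on 1 of 4 in EH and on 0 of 4 in PH, and Myl2 measured 76173, 99886, 94958 and 119033 in EH and 25390.5, 17234, 28506 and 25674 in PH, below every EL and PL value. Myl2 and Hey2 were therefore higher in the ITGA6low than in the ITGA6high cells at both stages, as the ventricular label has it. Myh7, whose EH and PH values are given below, was higher in the ITGA6low cells at both stages too, without overlap. Myh6, which all CMs express, was lower in EL than in EH and overlapped between PL and PH. It bears on the muscle label alone.

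**Figure D1:**
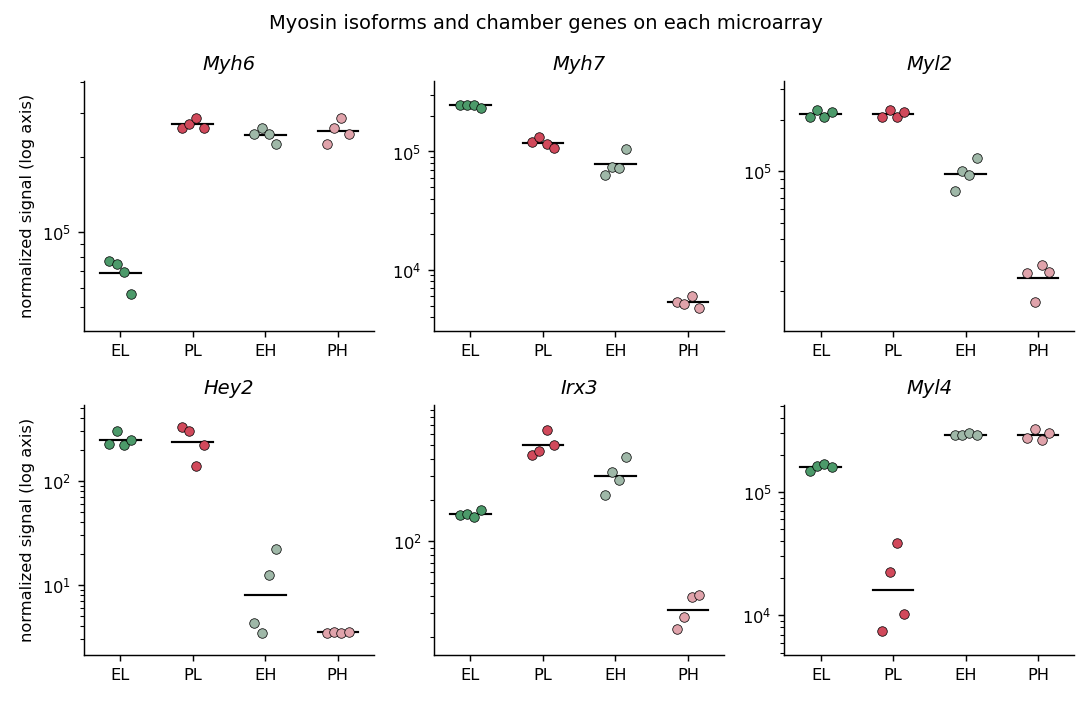
Normalized signal intensity (log axis) of Myh6, Myh7, Myl2, Hey2, Irx3 and Myl4 on each microarray of EL, PL, EH and PH, with 1 point per microarray and a line at the mean of the log2 values. Myh6 separates EL from PL, and its EH and PH values are among the highest signals, which the normalization makes equal between microarrays, Myl2 has the same values in EL and PL, and Myl4 spreads from 7512 to 38352 in PL.

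Genes of other cell types differed between EL and PL, and are given here before the results they go with. In bulk samples, fewer cells of a type and less RNA per cell cannot be told apart. Over the 24585 genes with a symbol, each by its brightest probe, 469 (1.91%) rose and 869 (3.53%) fell, and the shares of risen and fallen genes in each list below are to be read against these 2. All 9 epicardial markers (100%) fell, with a median of -4.54, and their summed signal was 3581, 3439, 4416 and 3397 in EL and 232, 115, 77.1 and 159.6 in PL. Wt1 and Krt19, which define that layer, were well above background on all EL and on no PL microarrays. Of 14 fibroblast and mesenchymal markers 10 fell (71.4%) and none rose at an unadjusted p of 0.05 or less in limma. Their summed signal was 27345, 17193, 22769 and 19048 in EL and 1848, 1096, 900.0 and 862 in PL, led by Col1a2, and Pdgfra was well above background on 4 EL and 0 PL microarrays. The 4 PL microarrays thus held far less collagen and epicardial RNA than any EL microarray, with PL sample 2 the highest of them in both sums. The summed signal of 10 pan-cardiomyocyte markers was 645606, 605760, 625536 and 595633 in EL and 1008620, 997743, 964291 and 939750 in PL. That of 9 ventricular markers was 460654, 481462, 460525 and 461550 in EL and 333991, 367378, 329826 and 334738 in PL. By their mean over EL and PL, Actc1 and Myl2 are the brightest genes of these 2 sums, and their changes cannot be read after quantile normalization. In the ventricular sum, Myl2 had the same values in both groups, while Myh7, the other bright member, was lower in PL. Of the 9 ventricular markers 3 rose (33.3%) and 1 fell (11.1%), and the median was 0.

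Blood genes set 1 library apart. The summed erythroid signal was 12651, 14458, 90646 and 13241 in EL and 2776, 1783, 2037 and 2074 in PL, where α-globin (Hba-a1) alone measured 10832, 12348, 76597 and 11214 in EL and 2456, 1601, 1856 and 1800.3 in PL. The summed leukocyte signal was 777, 571, 3723 and 659 in EL and 345, 378, 431 and 447 in PL, and C1qa, C1qc, Cd14 and S100a8 were well above background on the microarray of EL sample 6 only. Ptprc, the pan-leukocyte antigen CD45, was not well above background on any EL or PL microarray. Among the leukocyte, erythroid and platelet markers 2 of 15, 4 of 12 and 1 of 5 fell (13.3%, 33.3% and 20%), and without EL sample 6 these counts were 0, 4 and 0, the calls on Csf1r, Tyrobp and Pf4 being lost (adjusted p = 0.13, 0.058 and 0.11), though their changes were then -1.89, -2.28 and -1.82, against -2.34, -3.21 and -2.89 with it. Leaving out any 1 of 6 samples ended the call on Csf1r, and any 1 of 7 that on Pf4. Of 15 endothelial and endocardial markers 2 fell (Esam and Npr3; 13.3%), 1 without EL sample 2 or 6 or PL sample 3, 4 or 5 (adjusted p of Esam 0.074 to 0.098), and Cdh5, Emcn and Pecam1 were not well above background on any EL or PL microarray. Their summed signal was 2109.8, 2136, 2630.0 and 2367 in EL and 1024, 1058, 2085 and 2268 in PL, to which Kdr contributed most. Of 11 smooth muscle and pericyte markers 4 fell (36.4%), among them Cnn1 and Notch3, and Myh11 was on no microarray well above background. The part that these cell types had in the changes below was not tested, except that without EL sample 6 the numbers of risen and fallen probes were 886 and 1197, against 892 and 1201 with it.

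Atrial RNA differed among the PL samples. The summed signal of 14 atrial markers was 172505, 185738, 197975 and 186607 in EL and 27456, 57717, 100853 and 38166 in PL, to which Myl4 contributed most in all EL samples and in PL samples 3 and 4, and Nppa in PL samples 2 and 5. Of the 14 markers 3 rose (Sln, Fgf12 and Itga6), 2 fell (Myl4 and Nr2f2) and 9 were not called, shares of 21.4% and 14.3%, and the median was 0.33. Myl4, the essential light chain of atrial and embryonic myosin, measured 147361, 161929, 168922 and 158706 in EL and 7512, 22552, 38352 and 10184 in PL and fell 9.92-fold (log2 -3.31 ± 0.37, adjusted p = 1.6e-05). Myl7, the atrial regulatory light chain, measured 9715, 9641, 9708 and 8701 in EL and 1485, 4898, 10757 and 2088 in PL, and sarcolipin (Sln) 1013, 769, 593 and 327 in EL and 704, 3098, 6836 and 1124 in PL. In all 3 genes PL sample 4 was the highest and PL sample 3 the second highest of the PL samples, and in Myl7 and Sln the groups overlapped. Sln passed the test with an adjusted p of 0.045, and no longer without EL sample 3, 6 or 8 or PL sample 3 or 4 (adjusted p = 0.068 to 0.13). Without PL sample 4 its change was 1.11, against 1.70 with it. Sln also did not pass with a fit of the 8 EL and PL microarrays (adjusted p = 0.22). The same held for the methods' test, ANOVA with Tukey's post-hoc test (adjusted p = 0.053).

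**Figure D2:**
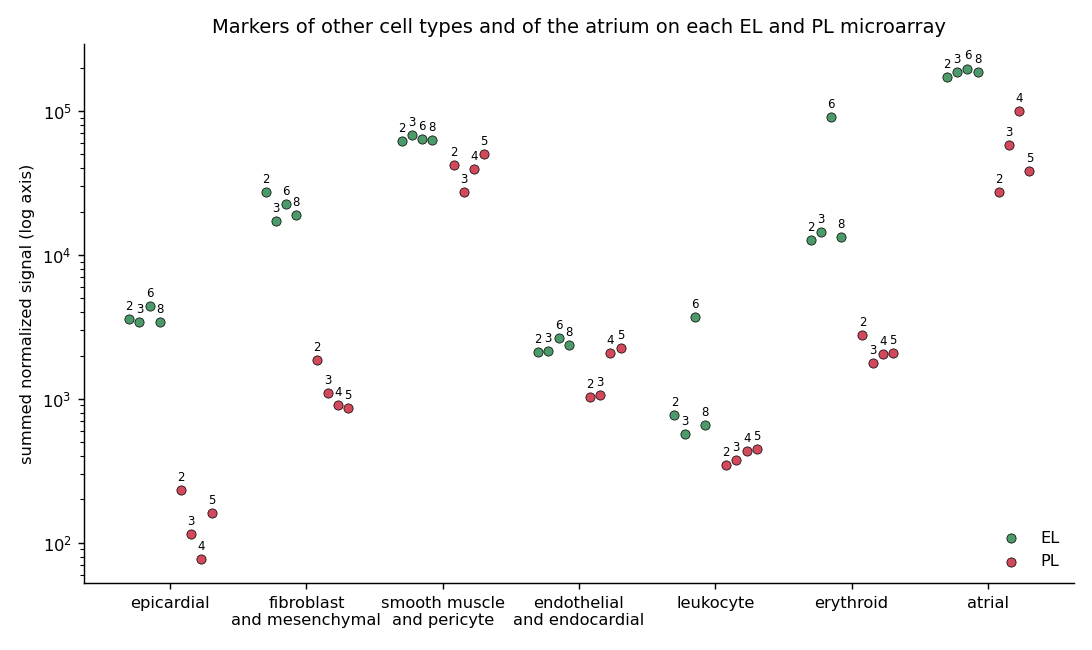
Summed normalized signal (log axis) of the markers of 7 cell types on each EL and PL microarray, with 1 point per microarray, labelled by its sample number. The epicardial and fibroblast sums are lower on all PL than on all EL microarrays, EL sample 6 stands above the others in the erythroid and leukocyte sums, and PL sample 4 leads the PL samples in the atrial sum.

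Among 20 genes of myosin and its partners, 1 rose and 4 fell (5% and 20%, against 1.91% and 3.53% of all genes with a symbol). The riser was Myh6. Besides Myl4, the fallers were the non-muscle heavy chains Myh9 (-1.64 ± 0.23; -1.58, under the limit, without PL sample 3 or 4) and Myh10 (-1.71 ± 0.08), which serve cell shape and division, and slow skeletal myosin-binding protein C, Mybpc1 (-2.13 ± 0.25; well above background on 4 EL and 1 PL microarrays). The median of the list was -0.19, against 0.012 over 24585 genes with a symbol, and it was 0.04 under the scaling to the 75th percentile. Mhrt, a long non-coding RNA transcribed from the locus of both heavy chains, rose by 5.25 ± 0.34 (adjusted p = 1.6e-07). Its signals were 421, 259, 261 and 216 in EL and 16361, 8358, 10847 and 8659 in PL.

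Of 38 genes of the thin filament and the Z-disc 6 rose and 3 fell (15.8% and 7.89%, against 1.91% and 3.53%), and the median was 0.44. The largest rise belonged to Myom2, the M-band protein of fast fibres, which measured 4339, 3785, 4538 and 4116 in EL and 42348, 48611, 42143 and 55724 in PL (log2 3.49 ± 0.11, adjusted p = 6.1e-10). Its relative Myom3 rose by 2.63 ± 0.41, the titin-binding adaptor Fhl2 by 2.04 ± 0.13 and the actin-binding Ablim1 by 1.64 ± 0.17 (1.50 without PL sample 2 and 1.58 without EL sample 3). Myotilin (Myot) and Xirp2 were not well above background on any EL microarray, and rose at least 2.69-fold and 1.06-fold (adjusted p = 3.1e-06 and 0.0063). The PL signal was well above background on 3 of 4 microarrays for Myot and on 2 of 4 for Xirp2, which did not pass with EL samples 2 and 8 alone (adjusted p = 0.12). The tropomyosins Tpm2 (-1.64 ± 0.19; -1.48 without PL sample 3) and Tpm4 (-2.10 ± 0.15) and the slow skeletal troponin T, Tnnt1 (-1.94 ± 0.12), fell. Cardiac troponin I (Tnni3) was 2.92-fold higher (log2 1.55 ± 0.06, adjusted p = 1.7e-09), just short of the limit, while its fetal counterpart Tnni1 differed by 0.33 ± 0.11 (adjusted p = 0.05).

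**Figure D3:**
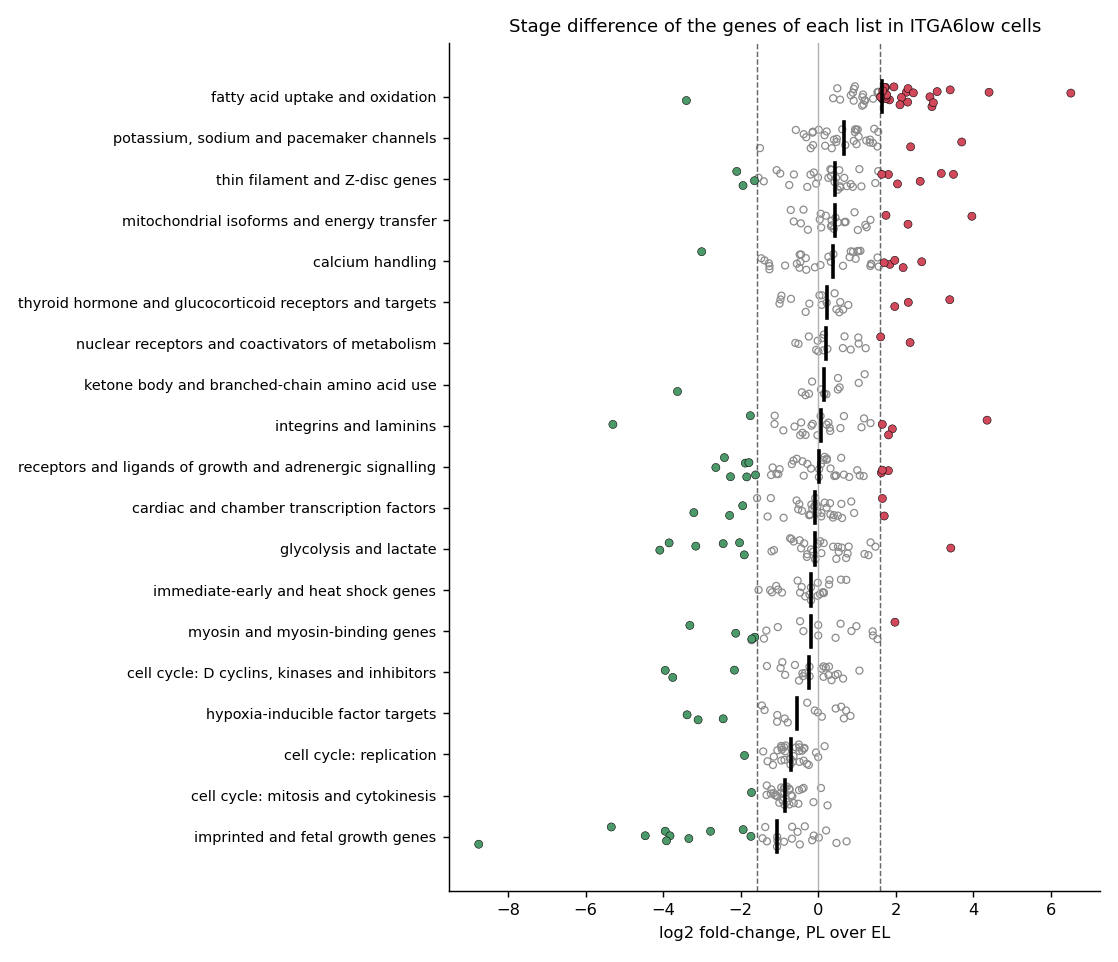
Log2 fold-change of PL over EL for every measured gene of the 19 pathway lists, with 1 point per gene by its brightest probe, filled where the gene rose or fell, and a bar at the median of the list. Fatty acid uptake and oxidation has the highest median (1.65) and the imprinted and fetal growth genes the lowest (-1.06), and the 3-fold limits are drawn as dashed lines.

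Many genes of fatty acid uptake and oxidation rose. Of 43 genes, each of them well above background throughout EL or PL, 24 rose (55.8%, against 1.91% of all genes with a symbol, on a list drawn up with earlier results known), 1 fell, 18 were not called, and 41 lay higher on all PL than on all EL microarrays (10.4% of all probes did). The median was 1.65. At the surface, the translocase Cd36 measured 342, 372, 373 and 382 in EL and 1879, 1904, 1562 and 1934 in PL (log2 2.30 ± 0.10, adjusted p = 7.5e-09), the transport protein Slc27a1 rose by 3.07 ± 0.11, and lipoprotein lipase (Lpl), which frees fatty acids from circulating lipoproteins, by 1.84 ± 0.12. Acsl1, which makes acyl-CoA, rose by 2.27 ± 0.10. The carnitine carrier Slc25a20 and the inner carnitine palmitoyltransferase Cpt2 rose by 2.32 ± 0.14 and 1.62 ± 0.16 (Cpt2 by 1.49 without EL sample 8 and 1.53 without PL sample 3), whereas the outer enzyme was higher by less than 3-fold in both forms, the muscle form Cpt1b by 0.89 ± 0.08 (adjusted p = 3.4e-06) and the liver form Cpt1a by 0.91 ± 0.09 (adjusted p = 8.8e-06). Mlycd, which removes the malonyl-CoA that inhibits this step, rose by 2.11 ± 0.10.

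Within β-oxidation, the very long-chain acyl-CoA dehydrogenase Acadvl measured 15414, 15554, 14910.1 and 16293 in EL and 67099, 70876, 63348 and 74142 in PL (log2 2.15 ± 0.08, adjusted p = 1.3e-09). Every PL value stood far above every EL value, and both groups were tight. Decr1 and Ech1, which handle the double bonds of unsaturated fatty acids, rose by 2.45 ± 0.10 and 2.97 ± 0.15. Both subunits of the trifunctional protein rose alike, Hadha by 1.75 ± 0.07 and Hadhb by 1.74 ± 0.08, and so did the medium-chain dehydrogenase Acadm (1.65 ± 0.14) and the thiolase Acaa2 (1.76 ± 0.10). Acadm was under the limit without PL sample 2 (1.54) or 3 (1.56), and under the scaling to the 75th percentile Acadm and Acaa2 were at 1.58 and 1.57. Pdk4, which blocks the entry of pyruvate into the citric acid cycle, rose by 1.71 ± 0.13.

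Further genes of the list act on lipid droplets, on uncoupling and on circulating lipids. The lipid droplet protein Plin5 measured 48.1, 81.5, 87.2 and 89.4 in EL and 6677, 6191, 6951 and 7393 in PL and rose 91.3-fold (log2 6.51 ± 0.21, adjusted p = 8.9e-10). Plin4, of the same family, rose by 4.40 ± 0.21, and the uncoupling proteins Ucp3 and Ucp2 by 3.40 ± 0.15 and 2.93 ± 0.15. Angptl4, a secreted inhibitor of lipoprotein lipase, rose by 2.88 ± 0.32 and spread widely within both groups, with EL values of 466 to 1096 and PL values of 3001 to 8289. Against the list, the fatty acid-binding protein Fabp5 measured 2673, 3093, 3387 and 3178 in EL and 269, 312, 309.5 and 277 in PL and fell 10.5-fold (log2 -3.40 ± 0.28, adjusted p = 1.3e-06). Fabp3, the form of the adult heart, was higher by 1.13 ± 0.07 (adjusted p = 1.3e-07).

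Since 41 of these genes were higher in PL without overlap, the windows from 250 bases before to 50 after their start sites (RefSeq, GRCm38.p6) were searched on both strands for AGGTCA, the half-site of PPAR, ERR and other nuclear receptors. The tables held windows for 33 of the 43 genes, and 27.0% of the 37 windows had the letters, against 16.3% of all 32851 windows. The longer ERR motif TCAAGGTCA stood in 0.423% of all windows and in 0% of these. A match describes the letters only. Stretches around it follow for 3 genes that rose, given from 5′ to 3′ on the strand of the gene with the motif in capitals. The Ucp3 stretch lies at chr7:100472831-100472960 (plus strand) and holds the motif at -149 and -44 from the start site. The Acadvl stretch lies at chr11:70015424-70015548 (minus strand) with the motif at -87, and that of Plin5, from its second start site, at chr17:56117279-56117378 (minus strand) with the motif at 14.
Ucp3: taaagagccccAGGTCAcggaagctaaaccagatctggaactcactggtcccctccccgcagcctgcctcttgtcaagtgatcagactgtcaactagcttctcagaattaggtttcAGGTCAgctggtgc
Acadvl: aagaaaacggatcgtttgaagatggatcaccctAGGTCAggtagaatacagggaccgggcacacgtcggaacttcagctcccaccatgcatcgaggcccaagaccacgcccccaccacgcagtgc
Plin5: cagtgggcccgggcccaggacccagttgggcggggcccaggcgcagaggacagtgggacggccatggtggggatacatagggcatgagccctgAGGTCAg

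The same 43 genes moved less, and mostly the same way, in ITGA6high cells. In PH against EH 8 rose (1.3% of all probes did) and 0 fell (in limma 1, Plin2, was lower at an unadjusted p of 0.05 or less), and the median was 0.83. In the test of the difference between both fractions (the interaction), 28 of 43 passed the adjusted p, where 1759 of all 55681 probes did. Of these 28 genes, 2 also reached 3-fold (1.2% of all probes did). They were Angptl4 (2.04 ± 0.45), with a larger rise in ITGA6low cells, and Fabp5 (-3.38 ± 0.40), which measured about the same in PH as in EH (log2 -0.01). Cd36 came next, with 1.50 ± 0.15 (adjusted p = 7.5e-05).

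**Figure D4:**
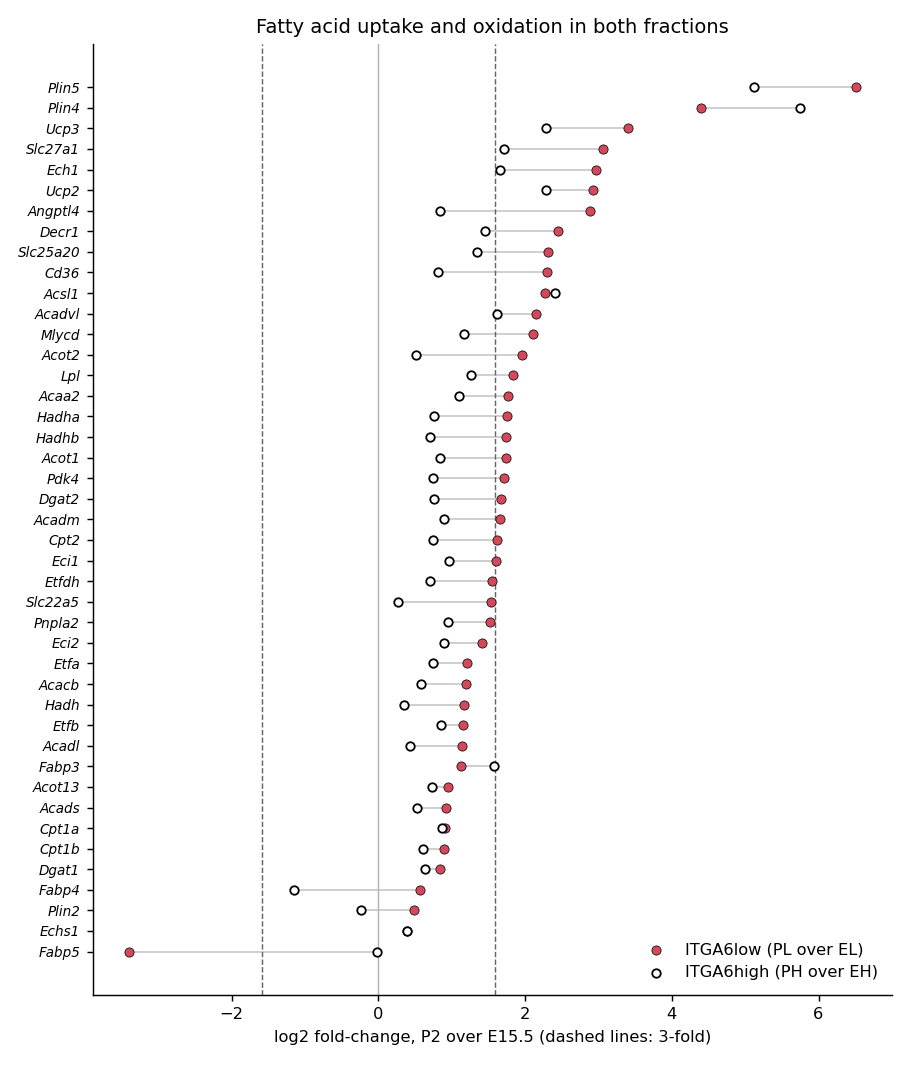
Log2 fold-change with P2 over E15.5 of each of the 43 genes of fatty acid uptake and oxidation in ITGA6low cells (PL over EL) and in ITGA6high cells (PH over EH), ordered by the former. Plin5 lies at 6.51 in ITGA6low cells, and Fabp5 at -3.40 in ITGA6low and -0.01 in ITGA6high cells.

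Glucose and lactate genes moved in both directions. Of 37 genes 1 rose and 6 fell (2.7% and 16.2%, against 1.91% and 3.53%), and by the adjusted p alone 11 were higher and 14 lower (9.69% and 10% of all probes were), with a median of -0.08. The glucose transporter Slc2a1 (GLUT1) measured 1989, 2239.6, 2039.5 and 2072 in EL and 554, 309, 324 and 379.8 in PL (log2 -2.45 ± 0.16, adjusted p = 1.7e-07), and Slc2a3 (GLUT3) 505, 545, 402 and 531 in EL and 37.3, 51.7, 11.3 and 32.5 in PL (log2 -4.08 ± 0.36), where the PL signal was well above background on 3 of 4 microarrays. The monocarboxylate transporter Slc16a3 (MCT4), which exports lactate, measured 10499, 11862, 9204 and 10869.5 in EL and 755, 427, 845 and 1073 in PL (log2 -3.84 ± 0.23, adjusted p = 9.2e-08). Pfkfb3, which drives glycolysis through fructose 2,6-bisphosphate, fell (log2 -3.16 ± 0.23), as did the enzymes Eno2 (-2.03 ± 0.18) and Pgam1 (-1.91 ± 0.07). Gpd1, the glycerol 3-phosphate dehydrogenase of the cytosol, was the riser (3.42 ± 0.12). Below the limit, the insulin-responsive transporter Slc2a4 (GLUT4) and the muscle isoforms Pfkm and Eno3 were higher, by 1.29 ± 0.09, 1.19 ± 0.07 and 1.47 ± 0.06, while Eno1 was lower (log2 -1.20 ± 0.08). Isoforms of enolase thus moved in opposite directions.

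Of 14 genes of ketone body and branched-chain amino acid use, 1 fell (7.14%, against 3.53%) and 0 rose in limma, with 7 higher and 4 lower at an unadjusted p of 0.05 or less. By the adjusted p alone 5 were higher and 4 lower (9.69% and 10% of all probes were). The faller was Bdh1, the mitochondrial 3-hydroxybutyrate dehydrogenase, which measured 260.5, 356, 374 and 333 in EL and 29.1, 33.4, 13.9 and 34 in PL (log2 -3.65 ± 0.34, adjusted p = 3.0e-06). Hypoxia-inducible factor targets had a median of -0.54 over 18 genes, with 3 falls (16.7%, against 3.53%) and 0 rises (2 were higher by the adjusted p alone). Besides Slc2a1 these were Ndrg1 (-3.38 ± 0.25) and Hif3a (-3.10 ± 0.32). Vegfa, the classical target, differed by 0.66 ± 0.26 (adjusted p = 0.097).

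In the mitochondria, 3 of 26 genes rose (11.5%, against 1.91%) and 0 fell, with a median of 0.42. By the adjusted p alone 3 were lower, as 10% of all probes were. Sarcomeric mitochondrial creatine kinase, Ckmt2, measured 480.0, 456, 586 and 553 in EL and 8581, 8915, 8493 and 6418 in PL (log2 3.96 ± 0.13, adjusted p = 1.0e-09). Myoglobin (Mb), which stores oxygen, measured 19962, 18104, 21619 and 20595 in EL and 106169, 100372, 97222 and 94958 in PL (log2 2.31 ± 0.16). The muscle subunit Cox8b of cytochrome oxidase rose by 1.75 ± 0.09 (1.58, under the limit, under the scaling to the 75th percentile). Other muscle subunits were higher below the limit (Cox6a2 by 1.25 ± 0.10 and Cox7a1 by 1.02 ± 0.08), and the non-muscle counterpart Cox6a1 was lower (log2 -0.71 ± 0.10, adjusted p = 1.1e-04). Among 18 nuclear receptors and coactivators 2 rose (11.1%, against 1.91%), Perm1, a muscle regulator of oxidative genes, and Ppargc1b, by 2.37 ± 0.14 and 1.61 ± 0.32, of which the latter was under the limit without EL sample 2 (1.50) or PL sample 2 (1.37). The receptors themselves differed little: Ppara by 0.64 ± 0.09 (adjusted p = 8.8e-05) and Esrra by 0.68 ± 0.09 (adjusted p = 6.0e-05). Ppargc1a measured 4417, 4065, 4267 and 4194 in EL and 4461, 4583, 4162 and 3808 in PL (log2 0.00 ± 0.07, adjusted p = 1), with overlapping groups.

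Of 19 receptors and targets of thyroid hormone and glucocorticoids, 3 rose (15.8%, against 1.91%) and 0 fell in limma, with 3 lower at an unadjusted p of 0.05 or less. The targets Klf9 and Hr rose, Klf9 by 2.32 ± 0.14 (adjusted p = 1.1e-07) and Hr at least 3.05-fold from a signal not well above background in EL (adjusted p = 2.5e-06). The receptor Thrb was well above background on 1 PL and 0 EL microarrays and rose at least 1.13-fold (adjusted p = 5.3e-04), while Thra was higher by 0.57 ± 0.09 (adjusted p = 4.6e-04). Fkbp5, a glucocorticoid target, was lower (log2 -0.95 ± 0.10, adjusted p = 9.4e-06).

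Most genes of the cell cycle lists were lower in PL, though few by 3-fold. Among 33 genes of DNA replication 24 were lower by the adjusted p (10% of all probes were) and 0 higher (also 0 at an unadjusted p of 0.05 or less in limma), 1 fell past the limit, and the median was -0.71. Among 33 genes of mitosis and cytokinesis 24 were lower and 0 higher by the same 2 measures, 1 fell past the limit, and the median was -0.87. Ect2, the exchange factor that starts the cleavage furrow, measured 1179, 1173, 1238 and 1198 in EL and 459.8, 410.1, 288 and 305 in PL (log2 -1.74 ± 0.14, adjusted p = 1.2e-06). Cdc6, which loads the replicative helicase, measured 74.9, 55.4, 49.9 and 61.1 in EL and 32.4, 11.1, 23.9 and 7.49 in PL (log2 -1.90 ± 0.37, adjusted p = 0.0018), and was well above background on 1 of 4 PL microarrays. Without PL sample 5 the change of Cdc6 was -1.54, under the limit. The mitotic cyclin Ccnb1 (log2 -1.33 ± 0.19), the checkpoint kinase Bub1 (-1.33 ± 0.15), the spindle motor Kif11 (-0.89 ± 0.15), the mitotic activator Cdc20 (-0.87 ± 0.22) and the proliferation marker Mki67 (-0.96 ± 0.21) were lower by the adjusted p alone. Mki67 measured 5541, 5894, 4994 and 4390.0 in EL and 3130.1, 3916, 2274 and 1778 in PL. In ITGA6high cells the medians of the replication and mitosis lists were -0.46 and -0.69. In the interaction 0 genes of either list reached 3-fold (1.2% of all probes did). By the adjusted p alone 1 and 0 genes passed in limma, where 1759 of all 55681 probes did.

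Promoters of mitotic genes often carry CCAAT boxes, which bind NF-Y, together with a cell cycle homology region, for which TTTGAA is a common core. On either strand CCAAT stood in 86.2% and TTTGAA in 72.4% of the 29 windows of 27 mitosis genes, against 37.4% and 17.9% of all windows. The 33 windows of 27 replication genes held them in 57.6% and 12.1%. The related core TTCGAA stood in 10.3% of the mitosis, 6.06% of the replication and 1.56% of all windows. These shares describe letters, and no measurement of binding was made. The stretches of 4 genes that were lower in PL follow, each from 5′ to 3′ on the strand of the gene with CCAAT and TTTGAA in capitals (for Kif11 their reverse complements). They lie at chr3:27153833-27153984 (Ect2, from its second start site, minus strand), chr4:118437332-118437408 (Cdc20, minus strand), chr19:37376322-37376393 (Kif11, plus strand) and chr9:70421539-70421649 (Ccnb2, minus strand).
Ect2: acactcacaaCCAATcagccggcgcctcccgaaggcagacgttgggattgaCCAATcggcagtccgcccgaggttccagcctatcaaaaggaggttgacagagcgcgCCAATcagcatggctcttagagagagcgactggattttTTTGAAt
Cdc20: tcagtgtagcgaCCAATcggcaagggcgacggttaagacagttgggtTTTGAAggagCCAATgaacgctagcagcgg
Kif11: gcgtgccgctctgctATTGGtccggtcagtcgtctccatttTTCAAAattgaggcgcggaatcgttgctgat
Ccnb2: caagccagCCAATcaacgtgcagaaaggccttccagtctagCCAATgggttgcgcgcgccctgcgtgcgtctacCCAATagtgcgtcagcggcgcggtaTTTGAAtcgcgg
In these 4 genes CCAAT lies between -120 and -8 and TTTGAA between -19 and 16 of the start site.

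Of 25 D cyclins, kinases and inhibitors, 3 fell (12%, against 3.53%) and 0 rose (4 were higher at an unadjusted p of 0.05 or less in limma). Cyclin D1 (Ccnd1), which couples growth signals to the cell cycle, measured 322, 329.9, 325 and 361 in EL and 23.3, 20.5, 23.2 and 34.2 in PL (log2 -3.75 ± 0.25, adjusted p = 2.1e-07). Mycn, a driver of fetal CM proliferation, fell (log2 -2.16 ± 0.21). The third was an inhibitor of the cycle, Cdkn1c (p57), which measured 5330.3, 5224, 5221 and 4644 in EL and 252, 414, 318 and 362 in PL (log2 -3.94 ± 0.18, adjusted p = 7.3e-09). Cyclin D3 (Ccnd3) was lower (log2 -0.97 ± 0.09), whereas cyclin D2 (Ccnd2) differed by 0.28 ± 0.14 (adjusted p = 0.22).

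The imprinted and fetal growth genes had the lowest median of the pathway lists, -1.06, with 10 of 28 fallen (35.7%, against 3.53% of all genes with a symbol) and 0 risen, 2 being higher by the adjusted p alone. H19, a non-coding RNA from the Igf2 locus, measured 115297, 114263, 119033 and 111989 in EL and 1793, 4387, 2199.6 and 3824 in PL and fell 40.4-fold (log2 -5.33 ± 0.29, adjusted p = 3.5e-08), and 6 of its 7 probes fell. Igf2, the fetal growth factor, measured 2788, 2771, 2854 and 2168 in EL and 777, 785, 902 and 707 in PL (log2 -1.74 ± 0.15, adjusted p = 1.3e-06). Dlk1 measured 3435, 2708, 4387 and 2574 in EL and 38.8, 4.27, 4.15 and 4.4 in PL, and was well above background on 4 EL and 1 PL microarrays, so that the size of its fall rests on dim signals (log2 -8.75 ± 0.67, and -9.55 without PL sample 2, the brightest of PL). Mest (log2 -3.34 ± 0.24), Peg3 (-1.94 ± 0.16), Dcn (-3.91 ± 0.35) and the RNA-binding protein Igf2bp1 (-2.78 ± 0.27) fell, and the chromatin protein Hmga2 and the zinc finger gene Zim1 fell at least 4.18-fold and 6.18-fold. Igf2r (log2 -1.05 ± 0.15), Grb10 (-1.44 ± 0.27) and Meg3 (-1.37 ± 0.27) were lower by the adjusted p alone. Dcn also belongs to the fibroblast markers, and the collagen and epicardial sums given above were lower in the same PL samples; their part in the falls of this list was not tested. In PH against EH 14 of the 28 fell (2.1% of all probes did), and the fall of H19 there was smaller (-1.71; interaction -3.63 ± 0.41, adjusted p = 2.3e-04).

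Calcium handling genes rose in 5 and fell in 1 of 37 cases (13.5% and 2.7%, against 1.91% and 3.53%), with a median of 0.39. The calcium pump of the sarcoplasmic reticulum, Atp2a2 (SERCA2), measured 11245, 9495, 10184 and 9641 in EL and 40119, 40510.3, 33994 and 31806 in PL (log2 1.85 ± 0.12, adjusted p = 1.1e-07), and its inhibitor phospholamban (Pln) 2402, 2236, 2466 and 2528 in EL and 10668, 13373, 7585 and 7378 in PL (log2 1.97 ± 0.19). Pln differed little between PH and EH (0.14; interaction 1.84 ± 0.27). The skeletal pump Atp2a1 rose by 2.19 ± 0.19 and the T-type channel Cacna1g by 2.67 ± 0.26. Besides these rose Sln, as given above. The ryanodine receptor Ryr2 was 2.89-fold higher (log2 1.53 ± 0.11, adjusted p = 2.8e-07). Bin1, which shapes the T-tubule membrane, fell at least 1.4-fold at its only probe, which was not well above background in PL (adjusted p = 1.1e-04).

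Of 34 potassium, sodium and pacemaker channel genes 2 rose (5.88%, against 1.91%) and 0 fell, and the median was 0.66. By the adjusted p alone 14 were higher and 1 lower (9.69% and 10% of all probes were). At an unadjusted p of 0.05 or less in limma 16 were higher and 1 lower. Kcnip2, the subunit of the transient outward current, measured 19.3, 16.9, 24.7 and 24 in EL and 319, 333, 231 and 224 in PL (log2 3.70 ± 0.46, adjusted p = 4.5e-05), and its EL signal was well above background on 3 of 4 microarrays. The groups did not overlap in this gene. Fgf12, a modulator of sodium channels, rose at least 2.37-fold over a signal not well above background in EL, and followed the order of the atrial genes in PL, where samples 3 and 4 measured more than samples 2 and 5. It did not pass with a fit of the 8 EL and PL microarrays (adjusted p = 0.056). The pacemaker channel Hcn4 differed by -0.37 ± 0.32 (adjusted p = 0.52).

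Of 37 cardiac and chamber transcription factors 2 rose and 3 fell (5.41% and 8.11%, against 1.91% and 3.53%), with a median of -0.08. The risers were Iroquois factors of the ventricle. Irx3, which acts in the ventricular conduction system, measured 156, 158, 151 and 169 in EL and 424, 453, 643 and 503 in PL (log2 1.65 ± 0.21, adjusted p = 5.7e-05), but 216, 319, 279.9 and 412 in EH and 22.9, 28.3, 39.1 and 40.7 in PH, where it fell (interaction 4.88 ± 0.30, adjusted p = 2.0e-06). Irx5 rose at least 2.38-fold over a signal not well above background in EL, and was well above background on all EH and on no PH microarrays, so that its interaction, though called, has no measured size. Without PL sample 4 the changes of Irx3 and Irx5 were 1.53 and 1.58, under the 3-fold limit but past the adjusted p, and that of Irx5 was 1.49 without EL sample 2. Irx4, which represses atrial genes in the ventricle, measured 2114, 1848, 2131 and 1887 in EL and 3373, 3656, 2490.1 and 2811 in PL, higher by 0.61 ± 0.13 (adjusted p = 0.0034), against -2.64 in ITGA6high cells. Hand1, a factor of the fetal left ventricle, fell (log2 -3.21 ± 0.39, adjusted p = 4.1e-05; well above background on 4 EL and 1 PL microarrays). Nr2f2, which specifies atrial identity, fell at least 2.93-fold, and the epicardial marker Tbx18 fell too (log2 -2.29 ± 0.33). Nkx2-5, Gata4 and Tbx5 differed by -0.23 ± 0.12, -0.06 ± 0.06 and 0.22 ± 0.18 (adjusted p = 0.27, 0.63 and 0.5). In all, 9 of the 37 were called in the interaction (1.2% of all probes were).

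Among 27 genes of integrins, laminins and their partners 4 rose and 2 fell (14.8% and 7.41%, against 1.91% and 3.53%), with a median of 0.06. The laminin receptor chain of muscle, Itga7, measured 131, 119, 232 and 122 in EL and 2900.3, 2765, 3913 and 2439 in PL (log2 4.35 ± 0.22, adjusted p = 1.5e-08). The α-sarcoglycan of the dystrophin complex, Sgca, rose by 1.65 ± 0.10, and Itga9 by 1.81 ± 0.17. The sorting marker Itga6 itself measured 2003, 2621, 2298 and 2233 in EL and 6869.6, 8504, 8446 and 10907 in PL and rose 3.76-fold at its brighter probe (log2 1.91 ± 0.18, adjusted p = 3.4e-06), whereas its other probe differed by -1.13; cells were gated by ITGA6 separately at each stage. Itgb3, a vitronectin receptor chain, fell at least 6.48-fold at 1 of its 2 probes (adjusted p = 6.1e-08) and the collagen receptor chain Itga1 fell as well (log2 -1.75 ± 0.14).

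Among 39 receptors and ligands 3 rose and 7 fell (7.69% and 17.9%, against 1.91% and 3.53%), with a median of 0.02. The adrenergic receptors Adrb1 and Adra1b rose by 1.63 ± 0.15 and 1.81 ± 0.21, and the growth factor Fgf1 by 1.65 ± 0.12. Without PL sample 4 both Adrb1 and Fgf1 were at 1.57, just under the limit, as were Adrb1 without EL sample 8 (1.58) and Fgf1 without PL sample 3 (1.57). The ligands Bmp7 (log2 -1.62 ± 0.13) and Bmp2 (-2.42 ± 0.57) fell. The call on Bmp7 ended without EL sample 3 or PL sample 3 (-1.55 and -1.58), and Bmp2 did not pass with EL samples 2 and 8 alone (adjusted p = 0.092) or with a fit of the 8 EL and PL microarrays (0.057) and was at -1.75 without PL sample 5. Fallen were also the adhesion molecules Ncam1 (-1.84 ± 0.10, at 1 of its 3 probes) and Alcam, an early CM surface marker (-1.79 ± 0.28; -1.46 without PL sample 2). The Notch ligand Jag1, the natriuretic peptide receptor Npr3 and Adrb3 fell at least 2.05-fold, 1.14-fold and 2.09-fold. Erbb2, for which cells had been sorted at E15.5 (EL and EH) but not at P2, measured 712, 723, 698 and 732 in EL and 355, 407, 324 and 324 in PL (log2 -1.03 ± 0.10, adjusted p = 5.0e-06), and was also lower in PH than in EH (-0.64), a contrast with the same difference in sorting. Nppa, which encodes the atrial natriuretic peptide, measured 10051, 8164, 14057 and 14372 in EL and 9115, 15903, 32677 and 12459.9 in PL, with overlapping groups (adjusted p = 0.39).

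Immediate-early and heat shock genes, which can respond to the isolation of cells, gave no call in the ITGA6low cells. Of 23 genes 0 rose or fell in limma or in the test of the study's methods, 1 was higher and 6 lower by the adjusted p alone (9.69% and 10% of all probes were), with a lowest change of -1.54, 2 were higher and 9 lower at an unadjusted p of 0.05 or less, and the median was -0.19. In PH against EH 4 fell (2.1% of all probes did) and the median was -1.02. Fos measured 1198, 844, 1270.3 and 1282 in EL and 1706, 1350.2, 729.6 and 1448 in PL (log2 0.14 ± 0.26, adjusted p = 0.83), with overlapping groups, and Atf3, the gene of the list called in the interaction, differed by -1.19 ± 0.26 in ITGA6low and -3.42 in ITGA6high cells.

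Of 17739 probes well above background on all 8 microarrays, 364 rose (2.05%) and 299 fell (1.69%). Among those with a symbol, the largest rises after Plin5 belonged to the non-coding RNA 4631405J19Rik (5.88 ± 0.21) and the mitochondrial carrier Slc25a34 (5.87 ± 0.21), followed by Mhrt, by Neat1, the RNA scaffold of paraspeckles, and by Plin4, Itga7, the desaturase Scd4 (4.06 ± 0.19), the kinase Mapk10 (3.97 ± 0.31) and Ckmt2. Neat1 measured 276, 251, 218 and 194 in EL and 12069, 3738, 6089 and 5103 in PL (log2 4.72 ± 0.45), and the 5 probes of a second, human-style entry of it (NEAT1) rose by 4.71 to 4.90. Slc25a34 measured 33.6, 51.1, 36.9 and 46.1 in EL and 1726, 2361, 2789.9 and 2992 in PL, with tight and separate groups. The largest fall was that of fibronectin, Fn1, which measured 4327, 3848, 3364 and 3978 in EL and 76.5, 69.3, 39.4 and 44.2 in PL (log2 -6.13 ± 0.25, adjusted p = 3.0e-09). H19, the collagens Col1a1, Col3a1 and Col1a2 (-5.25 ± 0.38, -4.77 ± 0.47 and -4.44 ± 0.31), Rcn3, a calcium-binding protein of the endoplasmic reticulum (-4.40 ± 0.19), the globins Hbb-bt and Hbb-b2, Cdkn1c, Dcn, Slc16a3 and Ccnd1 followed. The 2 globin genes are near-identical, so that their probes may share signal, and EL sample 6 was the highest in both; without it they differed by -3.39 and -3.20, against -4.11 and -3.96 with it. Of these falls, Fn1, Col1a1, Col3a1, Col1a2 and Dcn are fibroblast markers.

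Each gene is given by its brightest probe. Of the genes named here that rose or fell, 46 had several probes, and for 20 of these at least 1 probe was not called. The other probe of Ect2 differed by -0.72, that of Myh9 by -0.91, that of Tmc7 by 0.81 and that of Mapk10 by 1.38. For Myh10, Mybpc1, Thrb and Hand1 the other probe was near 0 (-0.24, 0.00, 0.02 and -0.14), and for Adrb3, as for Itga6, it went in the opposite direction (1.54).

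Some genes were measured at 1 stage only. Of the risen probes 385 were not well above background on any EL microarray, and of the fallen 647 on any PL microarray; 64 of all called probes were not well above background on any of the 8. The brightest that appeared in PL were Tuba8, an α-tubulin isoform, at least 61.4-fold higher, Tmc7 (at least 27.2-fold), the melanin enzyme Dct (23.6-fold), Tmem82 (14.7-fold), the muscle fructose bisphosphatase Fbp2 (11-fold) and the kinase Sbk3 (10.7-fold). Tuba8 measured 9.78, 9.54, 11.1 and 6.76 in EL and 1246, 603, 1284 and 1038 in PL. Sbk3 measured 47.3, 239, 675 and 119.8 in PL, again highest in sample 4 and then in sample 3, as the atrial genes were, and its change of 4.99 was 5.62 without sample 2 and 4.34 without sample 4. The brightest that were lost were Krt19 (at least 49.7-fold lower), Wt1 (18.1-fold), Col2a1 (17.4-fold), Anxa1 (13.3-fold), Muc16 (13.2-fold) and the receptor kinase Axl (13.2-fold), of which Krt19 and Wt1 are epicardial markers.

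The stage difference of the ITGA6low cells was then set against that of the ITGA6high cells, in which 723 probes (1.3%) rose and 1167 (2.1%) fell. Of the 892 probes that rose in PL, 324 also rose in PH and 11 fell there, and of the 1201 that fell, 591 also fell and 7 rose. The interaction was called for 670 probes (1.2%), 335 in each direction (0.602%), and for 812 with the experiment, taken to be shared by both fractions, as a random block (correlation 0.147). All PL and PH microarrays shared a slide, but the E15.5 microarrays of both fractions lay unequally on their slides. Of probes well above background on all 16 microarrays, the largest positive interactions were those of Dcpp3 (5.04 ± 0.70), Irx3 and Mapt, the microtubule protein tau. Mapt measured 77.9, 86.2, 107 and 87.8 in EL and 1104, 543, 1472 and 1073 in PL, 53.6, 71.3, 83.6 and 70.7 in EH and 71.3, 28.9, 56.7 and 47 in PH (interaction 3.98 ± 0.43, adjusted p = 1.4e-04), so that it rose in the ITGA6low cells and did not pass the test in the ITGA6high cells (adjusted p = 0.32). The largest negative ones were those of Mbp, Adamts8 (-3.93 ± 0.32) and Dapk2 (-3.74 ± 0.33). Mbp, known from myelin, measured 174, 132, 197 and 155 in EL and 26.6, 44.1, 56.5 and 30.9 in PL, 299.6, 345, 285 and 322 in EH and 1313, 1252, 1450.2 and 1409.5 in PH, and changed in opposite directions (interaction -4.22 ± 0.28, adjusted p = 2.5e-06).

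**Figure D5:**
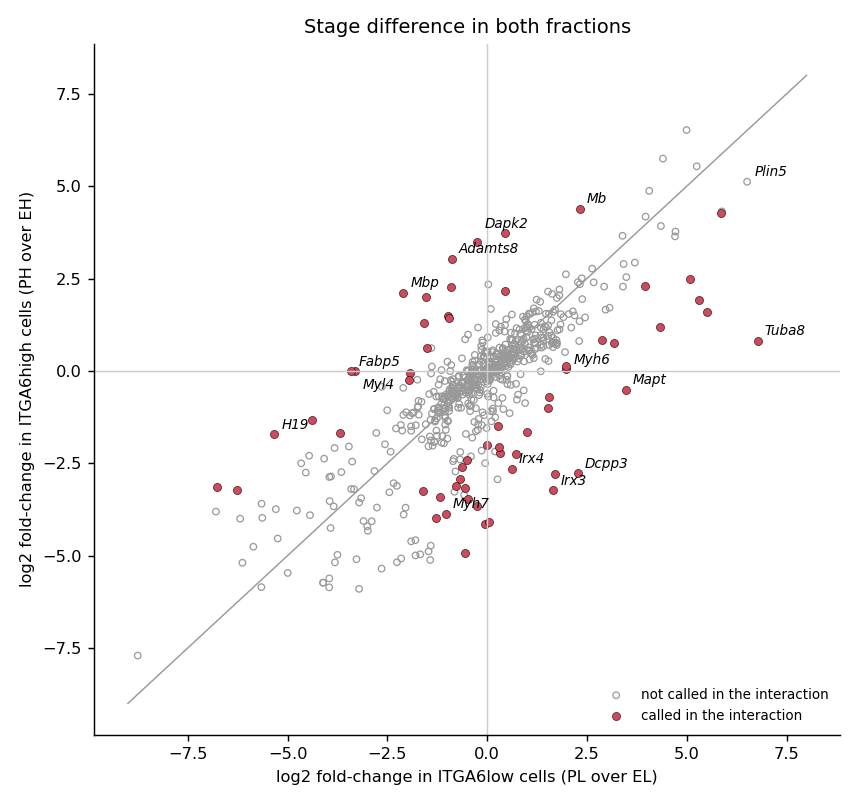
Log2 fold-change of P2 over E15.5 in ITGA6low cells (x axis) and ITGA6high cells (y axis) for the 651 genes of the lists and rules used here, with 1 point per gene by its brightest probe and the genes called in the interaction filled. Irx3 and Irx4 lie right of the diagonal with a fall in ITGA6high cells, and Mbp, Dapk2 and Adamts8 left of it.

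Among genes of the contractile apparatus and its energy supply, the myosin heavy chains changed differently in both fractions. Myh6 measured 248520, 263054, 248520 and 226948 in EH and 226948, 263054, 286863 and 248520 in PH, and its interaction was called (1.93 ± 0.14, adjusted p = 6.5e-06). These are again among the highest signals of a microarray, on which quantile normalization allows no difference to be read. Scaled to the 75th percentile instead, Myh6 differed by 0.23 between PH and EH (interaction 1.80, adjusted p = 0.0012). Myh7 was 63832, 74245, 73222 and 105435 in EH and 5367, 5167, 6026 and 4807 in PH, and fell there (log2 -3.87; interaction 2.83 ± 0.18, or 3.09 under the scaling to the 75th percentile). Myoglobin rose further in ITGA6high cells (log2 4.39; interaction -2.08 ± 0.23), and Ckmt2 in ITGA6low cells (1.67 ± 0.19). The interaction of Tnni3 was 0.00 ± 0.08 (adjusted p = 1).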

How the data were processed

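Total RNA of sorted cells (EL, PL, EH and PH, 4 samples each) was hybridised to 1-colour Agilent mouse microarrays. Per the file headers, intensity values were read with Agilent Feature Extraction 10.7.3.1 (probe build mm9). The deposited log2 values had been quantile normalized by the authors. Whether a spot was well above background was taken from the deposited intensity files.

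Groups and sample numbers came from the labels. Control spots were left out, spots of 1 probe were averaged (432 probes had several, at most 10), and 8 missing deposited values were left missing. A symbol was available for 33535 probes, and for 27509 it came from RefSeq by accession. limma 3.58.1 (R 4.3.3) fitted 1 mean per group over all 16 microarrays, and PL minus EL, PH minus EH and their difference (the interaction) were tested, with p-values adjusted after Benjamini and Hochberg over the whole table. The samples of a group were pools from separate experiments, and p-values measure the spread between these. Counts of genes at an unadjusted p are given without the share of all probes at that threshold, which was not counted. ANOVA with Tukey's post-hoc test, the methods' test, was an alternative. On simulated data for PL against EL (55673 probes, 6-fold changes) limma found 100 of 100 raised and 99 of 100 lowered probes and called 1 of 55473 others. The changed probes were drawn from those well above background on all 16 microarrays, and no slide difference was simulated. The result therefore does not extend to dim probes, to smaller changes or to an effect of the slide.

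Where a probe was not well above background on any microarray of a group, the fold is a bound ("at least N-fold"), the mean of the brighter group over that of the dimmer one, with each dim microarray at the higher of the probe's value and the array's lowest signal that was well above background. Named genes were members of the lists, the 12 largest changes in each direction with a signal well above background throughout EL and PL, the 6 brightest measured at 1 stage alone and the 3 largest interactions in each direction. The comparison and the gene lists were chosen with earlier results of these data known, and samples were put in groups by their labels. Some genes are not reported here, and the lists are counted without them. Tables and plots were made in Python 3.11.15 with numpy 2.4.6, pandas 2.3.3 and matplotlib 3.10.9. Microarrays have no read depth, and their number limits the precision.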

Additional observations from a re-analysis of the deposited data

Results flagged for a closer look

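With 4 samples in a group, a value is set apart where its gap to the nearest other sample, over the range of the group on the log2 scale, exceeds Dixon's critical value, which chance does in about 1 of 20 groups. It did so in 41 of 380 groups of 4 signals of single genes and in 5 of 22 groups of summed marker signals.

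In EL, sample 6 was set apart as the highest for the blood genes C1qc (121), Tyrobp (222), Hba-a1 (76597) and Hbb-bt (12971), and its summed signals stood apart for the leukocyte markers (3723), the erythroid markers (90646) and the platelet markers (257). It was also the highest for Hcn4 (13), Itga7 (232) and Cdh5 (14.4). The lowest signals of sample 8 were set apart for Myh7 (234625), Myl7 (8701), Cpt2 (818), Cdkn1c (4644) and Igf2 (2168), and its highest for Myot (6.09). For sample 3 these were the lowest signals of Lpl (5001), Cox8b (17294), Perm1 (418) and Fos (844), the highest of Ccnd3 (12801), Bmp7 (6059.6) and Myh11 (10.1) and the highest sum of ventricular markers (481462). The lowest signal of Plin5 (48.1) and the highest of Actc1 (298010) and Adamts8 (416) were those of sample 2. Myh7 and Actc1 are among the brightest genes, whose values quantile normalization sets, and bright genes also lead the sums of ventricular markers in EL and PL. Their flags therefore cannot be read as differences between samples.

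In PL, sample 2 was set apart as the highest for Dlk1 (38.8), Pecam1 (34.7), Esam (8.33), Notch3 (5.66), Wt1 (10.6) and Muc16 (15.4). Of these, Dlk1 alone was well above background on a PL microarray. For sample 3 the lowest signals of Eno1 (9293), Itga1 (83.7), Itgb3 (3.20) and Cnn1 (748), the highest of Hmga2 (4.18), Emcn (3.98) and Pdgfra (7.24) and the highest sum of ventricular markers (367378) stood apart. Sample 4 had the lowest signal of Cd36 (1562) and the highest of Adrb3 (15.7), Ptprc (7.49) and Dcpp3 (917), and sample 5 the lowest of Ckmt2 (6418). Cdh5, Emcn, Pecam1, Ptprc and Myh11 were not well above background on any EL or PL microarray.

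The stage difference of 35 named genes differed between both fractions by the interaction test of limma, at an adjusted p of at most 0.05 and at least 3-fold. The log2 difference, as the change in ITGA6low minus that in ITGA6high cells, was positive for Tuba8 (5.96), Dcpp3 (5.04), Irx3 (4.88), Irx5 (4.50), Emcn (4.12), Cdh5 (4.08), Mapt (3.98), Dct (3.91), Fbp2 (3.38), Irx4 (3.26), Tmem82 (3.14), Myh7 (2.83), Tmc7 (2.61), Myot (2.42), Atf3 (2.23), Angptl4 (2.04), Myl2 (2.02), Myh6 (1.93), Pln (1.84), Ckmt2 (1.67), Bmp7 (1.62) and Slc25a34 (1.60). It was negative for Mbp (-4.22), Adamts8 (-3.93), Dapk2 (-3.74), H19 (-3.63), Krt19 (-3.62), Fabp5 (-3.38), Myl4 (-3.30), Rcn3 (-3.06), Wt1 (-3.05), Mb (-2.08), Cnn1 (-2.0), Tnnt1 (-1.88) and Nr2f2 (-1.69). In Myot, Irx5, Nr2f2, Cdh5, Emcn, Wt1, Krt19, Slc25a34, Tuba8, Tmc7, Dct, Tmem82 and Fbp2 at least 1 of the 4 groups was not well above background on any microarray, so that the size of the difference rests on dim signals and was not measured. Myl2, Myh6 and Myh7 are among the brightest genes, for which quantile normalization gives no size either, and under the scaling to the 75th percentile their differences were 2.58, 1.80 and 3.09.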

How the results depend on the processing

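The numbers of risen and fallen probes (892 and 1201) and of interactions (670) moved by over 1.5 times under 3 alternatives. With normexp background correction they were 209, 252 and 233, where the offset of 50 shrinks the changes of dim probes by construction; all 461 probes called in this way were also called in the same direction without it. By the adjusted p alone they were 5395, 5592 and 1759, and with a 2-fold limit 2152, 2334 and 1067. Leaving out 1 EL or PL sample at a time gave 831 to 970 risen and 1154 to 1264 fallen probes and 572 to 709 interactions. Under the other alternatives the counts stayed within 1.5 times. Only the EL samples that shared the scan day of PL (samples 2 and 8) gave 792 and 1105, only EL samples 3 and 6 gave 1035 and 1266, scan day as a block, chosen after seeing the data, 827 and 1154, and the methods' test 847 and 1140. Scaling to the 75th percentile gave 901 and 1149 and moved the median of all probes from 0.014 to 0.186 on the log2 scale. The methods' test was not run for the interaction. Counts of interactions with the EL samples of a single E15.5 slide are not given.

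With the experiment as a random block, taken to be shared by both fractions, 894 probes rose, 1203 fell and 812 interactions were called. The sample number as a replicate block gave 987 risen and 1210 fallen probes and 752 interactions. The numbers did not pair the samples, since the deviations of samples 2 and of samples 3 in EL and PL correlated with r of -0.024 and 0.00085.

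Of 132 named genes that rose or fell, 84 did so under all alternatives and 114 passed the adjusted p under all. Leaving out 1 sample ended the call of 18, for 13 of them through the fold limit alone. By the median over the probes of a gene 34 of 46 remained called, and Ncam1 turned from -1.84 to 0.077 (adjusted p = 0.38), with the other genes keeping their direction where a threshold was passed.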
